A study of Mus musculus with 6 samples.

Results

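The genes described are 8 mouse genes known from the epidermis and other stratified epithelia, leaving the keratins aside: Serpinb5, Sfn, Trp63, Perp, Dsp, Pkp1, Pkp3 and Sprr2a1. They were selected on their TSA and DMSO signals on these same 6 arrays, and their probes were found by the RefSeq transcript each probe is annotated to. They are 8 of 18749 genes named on the array and have 14 of its 41174 probes. RefSeq places Serpinb5 and Pkp1 on chromosome 1, Sprr2a1 on 3, Sfn on 4, Pkp3 on 7, Perp on 10, Dsp on 13 and Trp63 on 16. Of these 14 probes, 12 were well above background on at least 3 arrays and entered the fit; the 2 probes of Trp63 did not. Because the choice of members used the comparison of TSA with DMSO, their differences in it are given as a description without a p-value.

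The cells were embryonic stem cells of 129/Ola mice, differentiated in serum-free N2B27 medium and labelled as day 3 cells. In 3 samples they had received TSA (trichostatin A, which blocks histone deacetylases) for 24 h, and in 3 samples the solvent DMSO for 24 h. The 3 samples of each treatment are labelled as independent experiments, and TSA and DMSO samples of the same number shared a slide and varied together. Each was hybridised, labelled with Cy3, to 1 Agilent array. The labels give neither the dose of TSA nor whether cultures were pooled.

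Stratified epithelia are held together by desmosomes, junctions in which cadherins cross the membrane while plakoglobin, plakophilins and desmoplakin tie them to the keratin filaments inside. The transcription factor p63, the product of Trp63, is required to form such epithelia, and several desmosomal and epithelial genes are among its targets, some of them shared with its relative p53. As the cells move outward, small proline-rich proteins are cross-linked beneath the membrane into the cornified envelope. Embryonic stem cells in N2B27 tend toward neural fates, so most of these genes are not ones for which the culture is known.

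The arrays sat on 3 slides, with TSA always at position 4 and DMSO at position 3, and these cannot be told apart. Signal was lowest on a TSA array, the 75th percentile being 311 to 885 intensity units on TSA arrays and 632 to 926 on DMSO arrays. TSA replicate 2 was the dimmest array and stood apart from the others, with a correlation of 0.931 and 0.939 to the other TSA arrays, while all remaining pairs of arrays of 1 treatment reached 0.984 to 0.990. All 8 markers of pluripotent or epiblast cells and the 5 early neural markers on the array were well above background on every array. Of 9 epidermal markers on the array, 5 were above background on all 6 arrays, while Dsg3, a desmosomal cadherin of keratinocytes, and Ivl, the envelope protein involucrin, were so on 0 of them. The summed epidermal markers were at 0.23 to 0.78 on TSA arrays and -0.23 to 0.16 on DMSO arrays, on the log2 scale relative to the 75th percentile of the array. Such a sum follows its brightest probes, here Itgb4 with a difference of 0.69. Of the 9 markers 2 were lower in TSA, Krt14 (-0.08) and Krt1 (-0.25). The largest difference was that of Col17a1 (1.88), which was above background on 2 TSA arrays and 0 DMSO arrays. In the same unit, 7 fibroblast markers summed to 3.40 to 3.87 on TSA arrays and 2.39 to 2.99 on DMSO arrays. The brightest was Thy1 (0.88), and Col1a1 (2.73) and Col1a2 (1.77) had the largest differences. Dcn (-0.91), Postn (-0.83) and Lum (-0.10, above background on 0 arrays) were lower in TSA. The 9 trophoblast markers summed to 1.41 to 3.65 on TSA arrays and 0.15 to 2.43 on DMSO arrays, with 2 of the 9 lower in TSA. The 5 early neural markers summed to less in TSA without overlap, 2.67 to 3.01 on TSA arrays and 3.03 to 3.27 on DMSO arrays. This sum followed mainly its brightest probe, Nes (-0.38). Of the 5 markers 3 were lower, Pax6 by the most (-1.21), while Hes5 (0.54) and Sox1 (0.25) were higher. The sums of 8 pluripotent or epiblast markers (5.998 to 6.57 on TSA arrays, 6.19 to 6.87 on DMSO arrays) and of 8 visceral endoderm markers (1.60 to 4.02 on TSA arrays, 1.18 to 4.04 on DMSO arrays) overlapped. None of these markers was called. Their part in the differences below was not tested, and in bulk RNA more cells of a type and more RNA per cell cannot be told apart.

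All levels below are log2 processed signals relative to the 75th percentile of their array, where 0 is that percentile. Differences are TSA minus DMSO and carry limma's standard error (n = 3 arrays of each treatment), without the slide as a block unless stated. A level belongs to its probe, so levels of different probes are not compared.

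Serpinb5 showed the clearest separation of the members. It encodes maspin, a clade B serpin of epithelial cells that does not inhibit proteases. Its level was -2.46, -2.90 and -2.51 on TSA arrays 1, 2 and 3, against -5.71, -5.48 and -4.84 on DMSO arrays 1, 2 and 3. The groups did not overlap, with 1.94 between the lowest TSA and the highest DMSO array, and the 3 TSA arrays lay closer together than the DMSO arrays did. The difference was 2.72 ± 0.29 (6.59-fold), and 3.25, 2.57 and 2.34 on slides 1, 2 and 3. In intensity units the probe gave 122, 41.5 and 156 on the TSA arrays and 12.1, 14.7 and 32.3 on the DMSO arrays. It was well above background on all 3 TSA arrays but not on DMSO replicate 1, and with each DMSO array held at no less than its lowest signal called above background the fold was 6.53. With normexp background correction, which adds an offset to every spot, and quantile normalization together the difference was 0.63, against 2.59 with quantile normalization alone.

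Among the tested member probes, Serpinb5 was the 1 of 12 called higher in TSA by limma over all 28166 tested probes at an adjusted p under 0.05, where 0.92% of all tested probes were, and 0 of 12 were called lower, where 0.0355% were (0.955% in either direction). The call was absent when any array other than TSA replicate 2 was left out. With the slide as a block, 3 of 12 were called higher, namely Serpinb5, Pkp1 and 1 of the probes of Sprr2a1, beside 2.19% of all tested probes, and 0 lower, beside 0.146% (2.34% in either direction). Nothing is read from these counts, as the members were chosen with this contrast known. The TSA arrays all lay above the DMSO arrays for 3 of the 12 probes (Serpinb5, Pkp1 and Pkp3), against 12.6% of all tested probes, and all lay below for 0 of 12, against 8.94%. For 7 of the 12 probes every slide had its TSA array above its DMSO array, against 26.3% of all tested probes.

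**Figure D1:**
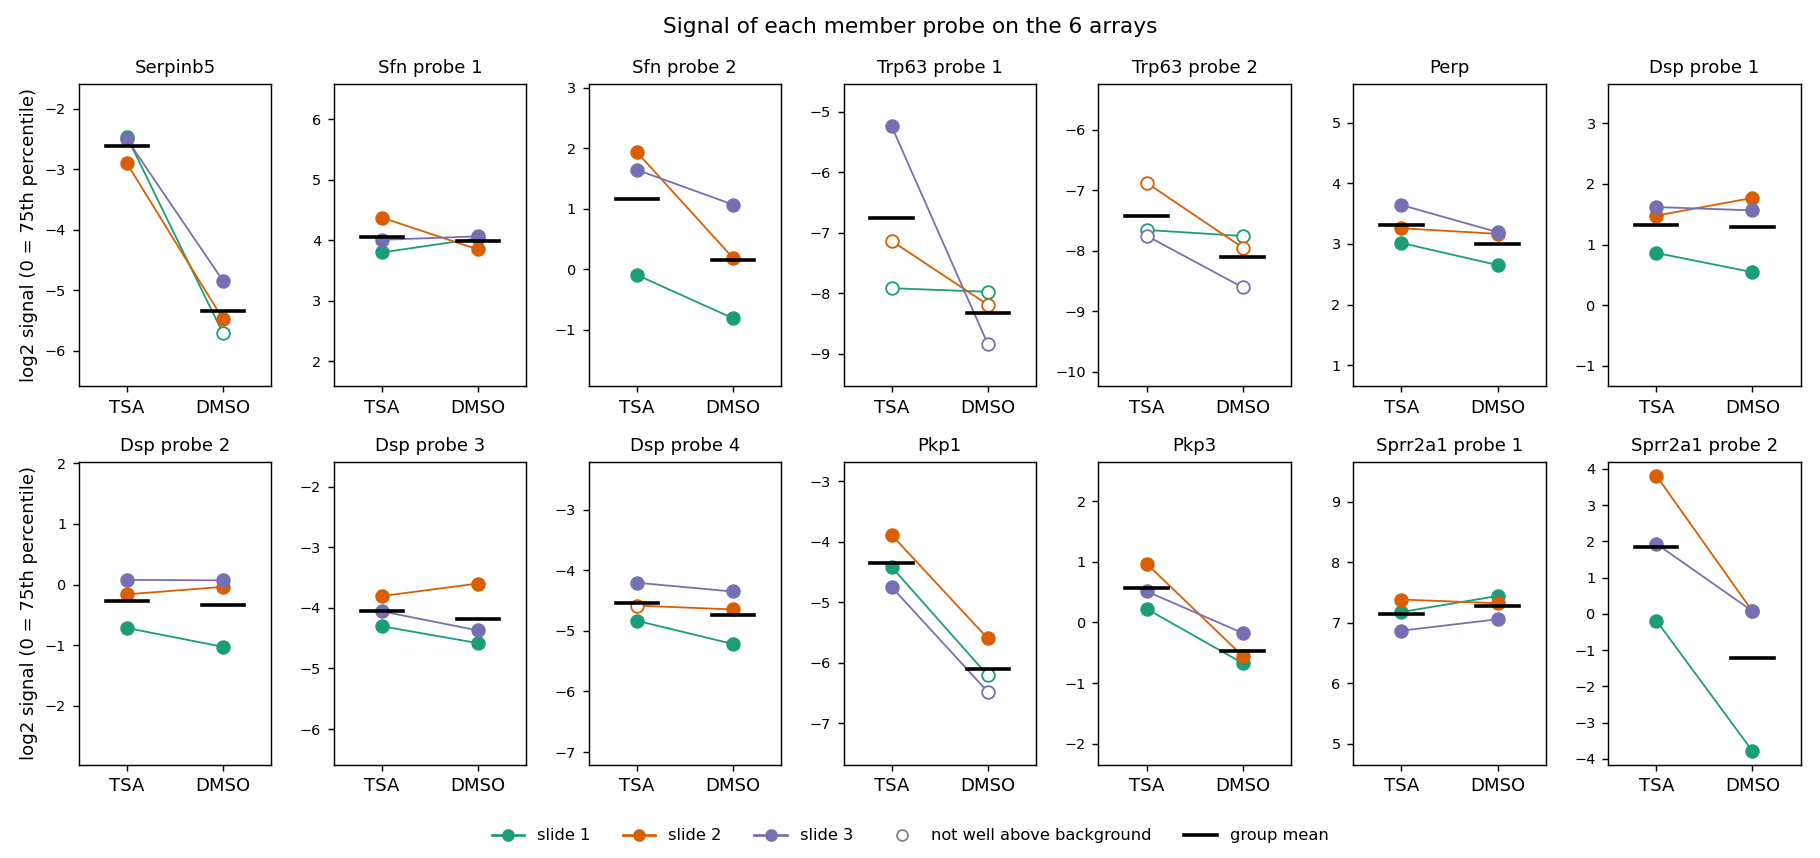
Level of each of the 14 member probes on the 6 arrays (y axis, log2 processed signal, 0 being the 75th percentile of the array), with TSA left of DMSO, a line for each slide, a black bar for the group mean and open circles for spots not well above background. The panels share the height of their y axis, except the taller one of Sprr2a1 probe 2, but not its place. Serpinb5, Pkp1 and Pkp3 separate the treatments, and the Trp63 probes are filled on 1 array.

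The promoter of Serpinb5 is shown with that of Dsp, as the member with the widest gap between groups that did not overlap and one whose treatments overlapped on every probe. The windows are the 250 bases before the annotated start, from RefSeq on GRCm38.p6, 5′ to 3′ on the gene's strand. Capitals mark the GC box GGGCGG, the AP-1 motif TGANTCA (N being any base, A in the match shown) or the TATA motif TATAAA, each on either strand.
Serpinb5 chr1:106860925-106861174 (+): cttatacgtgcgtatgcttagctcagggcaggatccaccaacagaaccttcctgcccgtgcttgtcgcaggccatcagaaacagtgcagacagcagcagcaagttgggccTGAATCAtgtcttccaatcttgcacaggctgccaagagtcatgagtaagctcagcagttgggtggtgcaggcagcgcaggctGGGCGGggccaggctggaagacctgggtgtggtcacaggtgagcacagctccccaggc
Dsp chr13:38151044-38151293 (+): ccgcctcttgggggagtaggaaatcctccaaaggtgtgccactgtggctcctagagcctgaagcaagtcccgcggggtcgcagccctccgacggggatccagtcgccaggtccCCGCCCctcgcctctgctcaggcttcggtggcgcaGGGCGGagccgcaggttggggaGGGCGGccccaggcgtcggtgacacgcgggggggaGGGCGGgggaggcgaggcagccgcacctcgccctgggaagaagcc
The Serpinb5 window held 1 GC box, beginning 58 bases before the start, 1 AP-1 motif, beginning 140 bases before it, and 6 CpG dinucleotides. The Dsp window held 4 GC boxes and 22 CpG dinucleotides. Of 32851 RefSeq promoter windows of this length, 32.7% held a GC box, 6.75% an AP-1 motif and 12.4% a TATA motif, and the median number of CpG dinucleotides was 6. None of these matches is evidence of binding. Windows were given for 4 of the 8 members. That of Sfn held 0 GC boxes and 3 CpG dinucleotides, and that of Sprr2a1 0 GC boxes and 1 CpG dinucleotide.

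Trp63, the gene of p63, gave almost no signal. Trp63 probe 1 read 2.78, 2.21 and 23.4 intensity units on TSA arrays 1, 2 and 3, and 2.51, 2.24 and 2.03 on DMSO arrays 1, 2 and 3. It was well above background on TSA replicate 3 alone. The other probe read 2.64 to 4.11 units on the TSA arrays and 2.38 to 2.92 on the DMSO arrays, and was above background on 0 of 6, including TSA replicate 3. The lowest signal called well above background was at most 13.8 units on the TSA arrays and at most 12.4 on the DMSO arrays. No fold is given, as probe 1 passed background on 1 array and probe 2 on 0. Its relative Trp53 gave 0.57 ± 0.45 (limma adjusted p = 0.661) and Trp73 gave -0.95 ± 0.31 (limma adjusted p = 0.271, or 0.0676 with slides blocked). The second probes of Trp53 and Trp73 gave 0.16 and -0.14.

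The plakophilins are armadillo-repeat proteins that cluster desmoplakin and the desmosomal cadherins in the plaque. Pkp1, the plakophilin of the upper epidermal layers, was at -4.42, -3.89 and -4.75 on TSA arrays 1, 2 and 3, against -6.21, -5.60 and -6.48 on DMSO arrays 1, 2 and 3. All 3 TSA arrays were above all 3 DMSO arrays. The difference was 1.74 ± 0.33 (3.35-fold), and 1.79, 1.71 and 1.73 on slides 1, 2 and 3. Of the DMSO arrays only replicate 2 was well above background for this probe, so the differences on slides 1 and 3 rest on background readings. With each DMSO array held at no less than its lowest signal called above background, which raised replicate 1, the fold was 2.96. The difference was 0.98 in the authors' deposited table, 1.55 with quantile normalization, and 0.16 with normexp and quantile normalization together; the cause was not tested.

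Pkp3, the plakophilin of simple as well as stratified epithelia, was well above background on all 6 arrays. It was at 0.22, 0.97 and 0.52 on TSA arrays 1, 2 and 3, against -0.67, -0.55 and -0.17 on DMSO arrays 1, 2 and 3. The groups did not overlap, although only 0.40 lay between them. The difference was 1.04 ± 0.27 (2.05-fold), and 0.90, 1.53 and 0.69 on slides 1, 2 and 3. The value stayed between 0.79 and 1.21 over its 15 alternatives.

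Dsp encodes desmoplakin, the protein that anchors keratin filaments to the plaque, and had 4 probes. Dsp probe 1 was at 0.86, 1.48 and 1.62 on TSA arrays 1, 2 and 3, and 0.54, 1.77 and 1.56 on DMSO arrays 1, 2 and 3. The groups overlapped, and both replicate 1 arrays were the lowest of their group. The difference was 0.03 ± 0.39, which turned to -0.05 with median centring. It was -0.35 without DMSO replicate 1 and 0.27 without DMSO replicate 2. Probe 4 was not well above background on TSA replicate 2. Without DMSO replicate 1 the differences of probes 2, 3 and 4 were -0.28, -0.07 and -0.04. With all arrays, probes 2, 3 and 4 gave 0.06 ± 0.37, 0.13 ± 0.31 and 0.20 ± 0.30. The 4 probes thus differed from each other by at most 0.17, against a median gap of 0.16 over the 5364 genes with more than 1 tested probe. Across the DMSO arrays Dsp probe 1 spanned 1.23, and 6.10% of tested probes spanned more.

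Perp, a membrane protein with 4 spans that is a target of p53 and p63 and part of desmosomes, was at 3.02, 3.26 and 3.64 on TSA arrays 1, 2 and 3, and 2.65, 3.17 and 3.19 on DMSO arrays 1, 2 and 3. It was higher in TSA on each slide, by 0.36, 0.09 and 0.45, while the groups overlapped. The difference was 0.30 ± 0.27 (1.23-fold), against a median of 0.08 over all 14529 tested genes. It was 0.13 without DMSO replicate 1, and without TSA replicate 3 it was 0.13, under the median of 0.17 over all tested genes in that fit.

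Sfn encodes 14-3-3 sigma, the 14-3-3 protein of epithelial cells, and its 2 probes gave different pictures. Sfn probe 1 was at 3.80, 4.37 and 4.01 on TSA arrays 1, 2 and 3, and 4.03, 3.85 and 4.06 on DMSO arrays 1, 2 and 3. These groups overlapped, with a difference of 0.08 ± 0.23. Sfn probe 2 was at -0.09, 1.94 and 1.64 on TSA arrays 1, 2 and 3, and -0.81, 0.19 and 1.07 on DMSO arrays 1, 2 and 3. It was higher in TSA on each slide, by 0.71, 1.75 and 0.57, and lowest in replicate 1 of both treatments. The difference was 1.01 ± 0.67 (2.02-fold), with a standard error of 0.29 once the slide was a block. The arrays spanned 2.03 in TSA and 1.88 in DMSO. The difference was 0.53 without DMSO replicate 1, 0.62 without TSA replicate 2 and 1.64 without TSA replicate 1. The gap of 0.93 between the probes was exceeded by 2.65% of the 5364 genes (142). At 0.43 it was exceeded by 842 without DMSO replicate 1, and at 0.67 by 629 without TSA replicate 3. Of the other 14-3-3 genes, Ywhab, Ywhae, Ywhag, Ywhah, Ywhaq and Ywhaz, 0 of 6 were called, and their differences lay between -0.25 and 0.26.

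**Figure D2:**
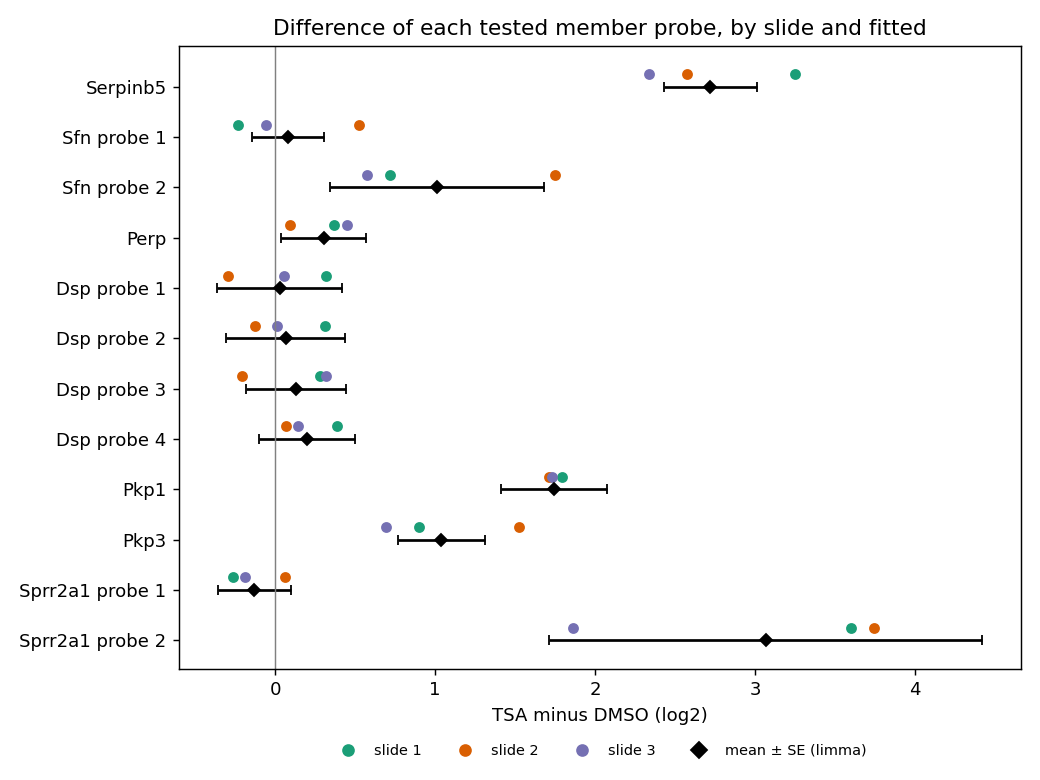
TSA minus DMSO (x axis, log2) for each of the 12 tested member probes, on each slide (coloured circles) and as the mean with its standard error from limma (black diamonds, 3 arrays per group). Serpinb5, Pkp1 and Pkp3 lie right of 0 on every slide, the Dsp probes lie around 0, and the 2 probes of Sfn and of Sprr2a1 disagree.

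Sprr2a1 encodes a small proline-rich protein of the cornified envelope, and its 2 probes disagreed more than those of any other member. Sprr2a1 probe 1 was at 7.18, 7.38 and 6.87 on TSA arrays 1, 2 and 3, and 7.44, 7.32 and 7.06 on DMSO arrays 1, 2 and 3. The groups overlapped, with a difference of -0.13 ± 0.23, and the spots were not saturated. Sprr2a1 probe 2 was at -0.18, 3.81 and 1.93 on TSA arrays 1, 2 and 3, and -3.78, 0.07 and 0.08 on DMSO arrays 1, 2 and 3. Within every slide TSA was higher, by 3.60, 3.74 and 1.86, but TSA replicate 1 lay below DMSO replicates 2 and 3, so the groups overlapped. The difference was 3.07 ± 1.35 (8.38-fold), with a standard error of 0.42 once the slide was a block, and 1.78 without DMSO replicate 1. In intensity units probe 2 read 590, 4368 and 3383 on the TSA arrays and 45.9, 688 and 976 on the DMSO arrays. On the DMSO arrays alone it spanned 3.86, and 0.128% of all tested probes spanned more, while probe 1 spanned 0.38 there, below the median of 0.42.

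The gap of 3.20 between the differences of the Sprr2a1 probes was exceeded by 0 of the 5364 genes with more than 1 tested probe, the next being Itgal with 2.87. It was exceeded by 1 gene in the authors' deposited values, by 4 without TSA replicate 2, by 1 without TSA replicate 3 and, at 1.83, by 12 without DMSO replicate 1. Over the 6 arrays the levels of the 2 probes correlated at -0.32, against 0.64 for the probes of Sfn and 0.41 to 0.97 for those of Dsp. Choosing the brightest probe for a gene therefore gave -0.13 for Sprr2a1, whereas the mean over its probes was 1.47.

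Sprr2 genes lie side by side and resemble each other closely. Over the 300 bases around the start held for each gene by RefSeq (GRCm38.p6), the window of Sprr2a1 was identical to that of Sprr2a2 and shared a run of 272 bases with that of Sprr2a3. The window before the start of Sprr2a1 is printed to show the stretch these copies share, with no GC box, AP-1 or TATA motif in it to mark. It held 3 matches to a p53 half-site, 1 unit of the p53 binding motif, which are not marked. The Dsp window held 1 such match and those of Serpinb5 and Sfn 0. Of the 32851 promoter windows 7.13% held a match, and no match is evidence of binding.
Sprr2a1 chr3:92215585-92215834 (+): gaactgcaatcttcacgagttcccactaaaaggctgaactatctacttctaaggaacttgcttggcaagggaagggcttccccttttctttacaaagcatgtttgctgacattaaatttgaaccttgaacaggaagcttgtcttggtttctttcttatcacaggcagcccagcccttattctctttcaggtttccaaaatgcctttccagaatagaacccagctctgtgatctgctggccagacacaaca
Neither of the copies has a probe of its own here, so signal from them may enter either probe of Sprr2a1; this was not tested, as probe sequences were not used here. Of the 5 other Sprr2 genes tested, 0 were called (limma), and their differences were between 0.16 and 1.50. Sprr2e gave 1.50 ± 0.79 (limma adjusted p = 0.536) and Sprr2b 0.86 ± 0.60 (limma adjusted p = 0.629). All 5 were highest on TSA replicate 2 and had their largest difference on slide 2, as Sprr2a1 probe 2 did. That array also stood apart over all tested probes, and the share of all tested genes with this pattern was not counted.

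**Figure D3:**
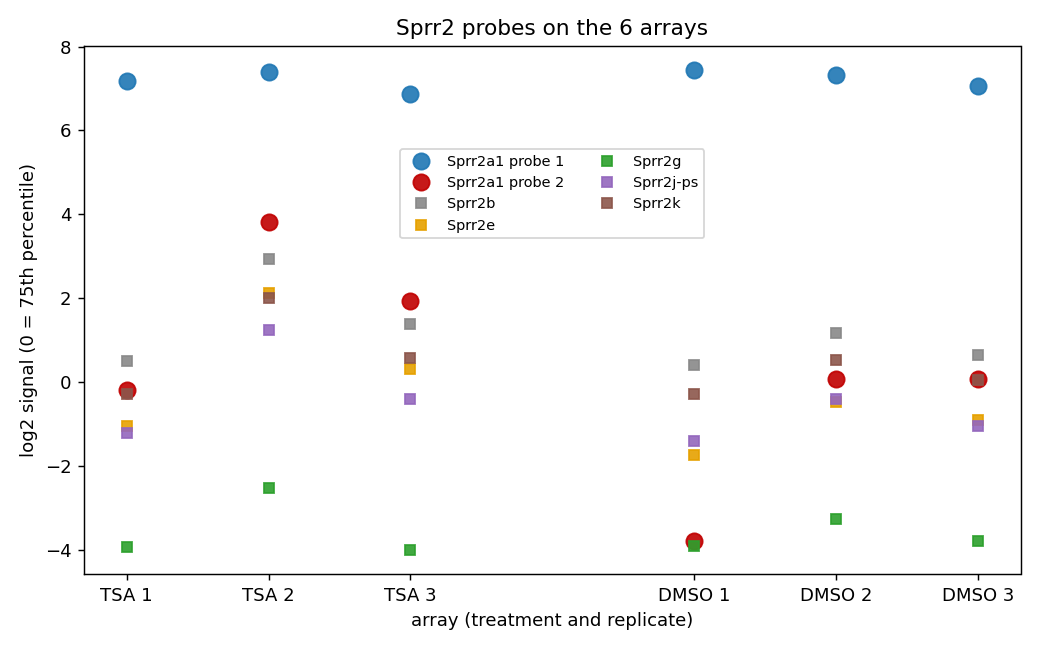
Levels (y axis, log2 processed signal, 0 being the 75th percentile of the array) of both Sprr2a1 probes (circles) and of the 5 other tested Sprr2 genes (squares) on each array (x axis). Sprr2a1 probe 1 stays between 6.87 and 7.44 while probe 2 runs from -3.78 to 3.81, and all squares are highest on TSA replicate 2.

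Genes related to the members were taken from 9 lists, and 142 of them other than the members were tested, each by its brightest tested probe. Of these, 1 rose and 0 fell (limma, adjusted p under 0.05), against 1.36% of all tested genes that rose and 0.0551% that fell, and 23 of the 142 (16.2%) had an unadjusted p under 0.05, against 14.9% of all tested genes. With the slide as a block 5 rose and 0 fell, against 3.2% and 0.145%. Their median difference was 0.14, against 0.08 over all tested genes.

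Among 8 other desmosome genes, 0 were called and the median was 0.23. Cdsn, the gene of corneodesmosin in the junctions of the outermost layer, gave 1.14 ± 0.24 (limma adjusted p = 0.0921, or 0.0653 with slides blocked). Jup, plakoglobin, gave 0.82 ± 0.38 (limma adjusted p = 0.483), Dsc2, a desmosomal cadherin of many epithelia, 0.30 ± 0.23 (limma adjusted p = 0.653; its other probes 0.15 and -0.26), and Evpl, the plakin envoplakin, 0.19 ± 0.19 (limma adjusted p = 0.713). The keratinocyte cadherins Dsg1a, Dsg1b, Dsg3, Dsg4 and Dsc1 were on the array but did not pass the filter on dim probes.

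The cornified envelope and late differentiation list had 51 genes on the array, of which 22 other than Sprr2a1 were tested, 0 were called and the median was 0.27. Aloxe3, a lipoxygenase of the epidermal barrier, gave 1.15 ± 0.25 (limma adjusted p = 0.113, or 0.0804 with slides blocked). Krtdap, a secreted protein of differentiating keratinocytes, gave 1.69 ± 0.66 (limma adjusted p = 0.377, or 0.0402 with slides blocked, where it rose), and its other probe gave 1.62. Cysrt1 gave 0.99 ± 0.29 (limma adjusted p = 0.212) and Cst6, a cystatin of the skin, 0.48 ± 0.23 (limma adjusted p = 0.502).

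Of 22 tested genes for transcription factors and kinases of epidermal fate, 0 were called and the median was 0.38, the highest of the 9 lists. Hopx, a homeodomain protein without DNA binding, gave 1.25 ± 0.20 (limma adjusted p = 0.0513, or 0.0448 with slides blocked). Ovol1, a zinc finger transcription factor, gave 1.42 ± 0.26 (limma adjusted p = 0.0688, or 0.0448 with slides blocked). Both rose with the block. Jag2, a Notch ligand regulated by p63, gave 0.80 ± 0.23 (limma adjusted p = 0.208) and Grhl1 0.58 ± 0.24 (limma adjusted p = 0.403). Of 18 tested genes of basal adhesion and basement membrane, 0 were called and the median was 0.23, with 12 higher and 6 lower in TSA by their means. Cdh3, P-cadherin, gave 1.05 ± 0.23 (limma adjusted p = 0.116, or 0.0912 with slides blocked). Itgb4, the hemidesmosomal integrin, gave 0.69 ± 0.24 (limma adjusted p = 0.307). Lamb3, a chain of laminin-332, gave 1.17 ± 0.41 (limma adjusted p = 0.321, or 0.0662 with slides blocked). The lowest differences of this list, named after their values were seen, were those of Dst, a plakin of hemidesmosomes (-1.001 ± 0.59, limma adjusted p = 0.588, other probes -0.86 and -0.64), Frem2 (-0.72 ± 0.31, limma adjusted p = 0.434) and Itgb1 (-0.51 ± 0.23, limma adjusted p = 0.465).

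Of 29 tested general epithelial genes, 0 were called and the median was 0.13. Esrp1, a splicing factor of epithelial cells, gave -0.53 ± 0.19 (limma adjusted p = 0.325), and the tight junction genes Cldn23 and Cldn1 gave 0.87 ± 0.35 and 0.85 ± 0.35 (limma adjusted p = 0.389 and 0.406). Cdh1, E-cadherin, and Epcam, which were named after their values were seen, gave 0.13 ± 0.19 and 0.13 ± 0.23. The 28 tested target genes of p53 outside the members also had 0 calls, with a median of -0.03. Fas, the death receptor, gave 1.24 ± 0.28 (limma adjusted p = 0.119, or 0.0833 with slides blocked). Cdkn1a, which encodes p21, gave 0.66 ± 0.27 (limma adjusted p = 0.414) and Mdm2, the ubiquitin ligase of p53, -0.67 ± 0.39 (limma adjusted p = 0.575).

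The gene that rose was a relative of Serpinb5 in the clade B serpin family. Serpinb1a, an inhibitor of neutrophil proteases, was at -2.87, -2.54 and -3.20 on TSA arrays 1, 2 and 3, against -6.00, -5.24 and -4.77 on DMSO arrays 1, 2 and 3. The groups did not overlap, and 2 of the 3 DMSO arrays were well above background. It rose by 2.47 ± 0.36 (5.53-fold, limma adjusted p = 0.0422, or 0.0438 with slides blocked). The call ended with quantile normalization, with median centring, with no filter, and when any array other than TSA replicate 2 was left out. With detection required on all arrays Serpinb1a was not tested, so the 1 related gene called there was another. Serpinb6b gave 1.27 ± 0.28 (limma adjusted p = 0.109) and rose with the block (adjusted p = 0.0461), Serpinb9, an inhibitor of granzyme B, gave 1.44 ± 0.61 (limma adjusted p = 0.430) while above background on only 2 TSA arrays and 1 DMSO array, and Serpinb3c gave 0.24 ± 0.27 (limma adjusted p = 0.745). The family lies in 2 clusters. Of the genes on chromosome 1, where Serpinb5 lies, 2 of 12 on the array were tested, Serpinb5 and Serpinb3c, and of those on chromosome 13, 6 of 13 were, Serpinb1a among them.

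**Figure D4:**
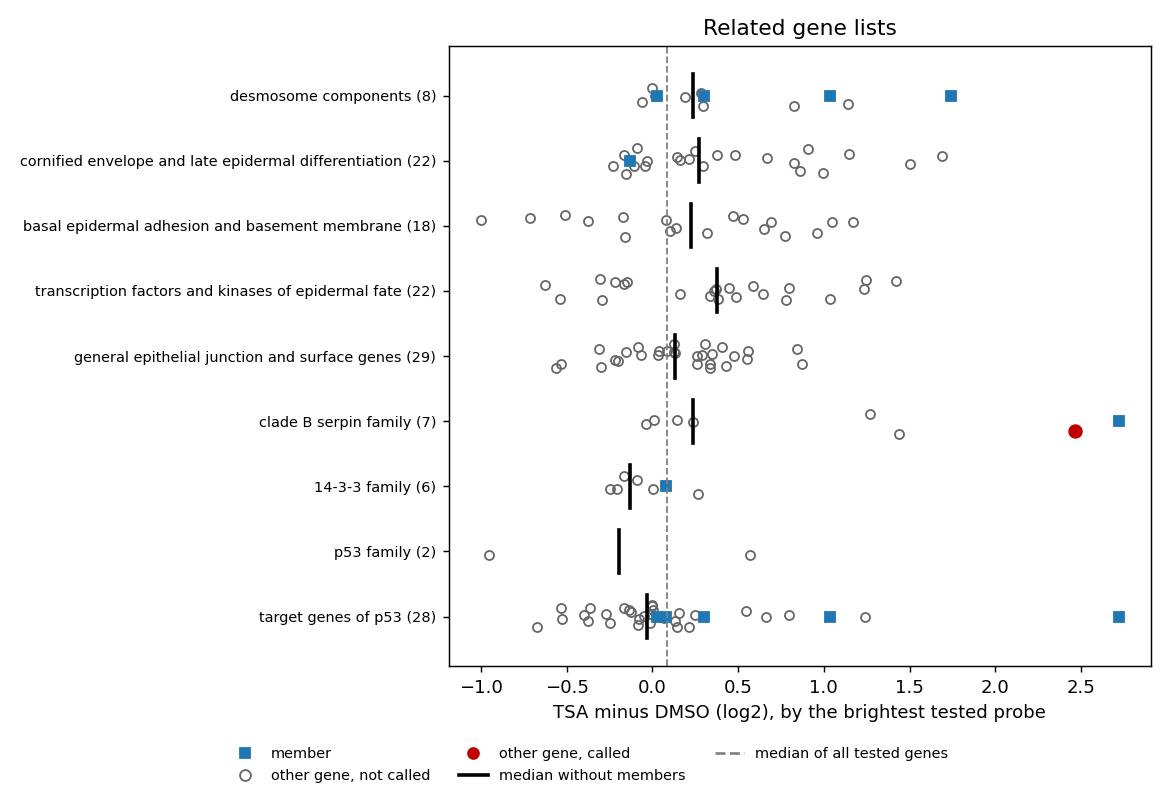
TSA minus DMSO (x axis, log2, brightest tested probe) for the genes of 9 lists, with the number of tested genes other than members beside each name. Squares are members, the filled circle is Serpinb1a, the 1 other gene called by limma, black bars are list medians without the members, and the dashed line is the median of all tested genes at 0.08.

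Genes with the most similar pattern over the 6 arrays were sought for each member probe above background on all of them, among 8397 or 8398 named genes, by Pearson's correlation. Treatment and slide are shared by all points, so the values are a description only. The 3 most similar to Pkp3 were Gch1, Psmb9 and Ifi35 (0.996, 0.994 and 0.994). For Dsp probe 1 they were Id4, Pcsk5 and Afap1 (0.991, 0.984 and 0.984), for Perp they were Plekhf2, Peg10 and Pld1 (0.989, 0.973 and 0.962), and for Sprr2a1 probe 2 they were Clu, Specc1 and Nab2 (0.999, 0.999 and 0.997). For Sfn probe 1 they were Gpr1, G6pd2 and Hmg20b (0.989, 0.986 and 0.973), and for Sfn probe 2 Tdrd7, Plaur and Lgals9 (0.996, 0.991 and 0.990), so the 2 probes had no gene in common.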

How the data were processed

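Per the file headers, the deposited scanner output gives spot intensity, and the processed signal used here is background-subtracted within the array by Feature Extraction (10.7 per the submitters' processing notes). The authors' deposited series table holds log2 values whose normalization is not given in the sources used here.

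Control spots and outlier spots were left out, log2 was taken, each array's 75th percentile subtracted and spots of 1 probe averaged; each member probe had 1 spot and 0 outlier flags. Probes well above background on at least 3 of 6 arrays were tested with limma 3.58.1 (lmFit, eBayes, two-sided, R 4.3.3; treatment only) and Benjamini-Hochberg over all 28166; the code was tested on simulated data. A gene was read by its brightest tested probe. Names came from RefSeq identifiers and symbols (27476 probes). Tables and figures used pandas 2.3.3, numpy 2.4.6, matplotlib 3.10.9 and Python 3.11.15. Each flag of detection is Agilent's own.

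The replicate number is the slide number, and deviations of same-numbered TSA and DMSO arrays from their group means correlated at 0.484, 0.614 and 0.585, so the numbers pair the samples. P-values measure the spread between samples labelled as independent experiments. The main fit leaves this pairing out, so spread shared by the arrays of a slide counts as error in its standard errors and p-values. With the slide as a block the standard error was 0.20 against 0.39 for Dsp probe 1 and 0.17 against 0.33 for Pkp1. For Sfn probe 1 it was 0.22 against 0.23. The 3 arrays per group limit the precision.

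Members and lists were chosen with earlier results of these data known. Named genes are the members, up to 4 genes of each list with the smallest adjusted p, the 14-3-3 and p53 families, and the 3 most correlated genes per member probe (SD at least 0.3 over the 6 arrays); not all are printed. Alternatives were other normalizations and filters, normexp followed by quantile normalization (offset 50, on median spot signals, as mean spot signals were not used), the authors' table, outlier spots kept, the slide block, and arrays left out.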

Additional observations from a re-analysis of the deposited data

How the results depend on the processing

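Of the 180 values of single member probes under alternatives, 173 moved by less than the spread between replicates. A sign change was counted for called values only, and 0 changed, but Serpinb5 was the 1 member probe called. The signs of the Dsp probes, Sfn probe 1 and Sprr2a1 probe 1, all near 0, turned under some. The value of Sprr2a1 went from -0.13 to 1.47 with the mean over its probes. Part of the 173 was fixed in advance, as the slide block and the other detection filters leave a probe's difference as it was. Keeping outlier spots shifted every member probe by the same small amount. The spread is each probe's own, 2.12 for Sprr2a1 probe 2, so its fall from 3.07 to 1.78 counts as unmoved. Serpinb5 stayed between 0.63 and 2.97 and Pkp3 between 0.79 and 1.21. The median over the 7 tested member genes, 0.30, was 0.13 to 0.45 with 1 array left out and 1.04 with the mean over a gene's probes, which brings in the second probes of Sfn and Sprr2a1.

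Calls depended far more on the setting. The 259 higher and 10 lower probes became 618 and 41 with the slide as a block, which also called 3 member probes and 5 related genes; it changed no other call named here. Higher probes numbered 148 with quantile normalization, 137 with median centring, 62 with normexp and quantile normalization together, 142 in the authors' table and 58 with no filter, where 0 were lower. Member probes called were 0 with normexp and quantile normalization together and 0 with detection required on all arrays, which leaves Serpinb5 out, and related genes called were 0 with quantile normalization, median centring or no filter. With 1 array left out, higher probes ran from 0 to 576, lower from 0 to 54, member probes called from 0 to 1 and related genes called from 0 to 3. The high ends come without TSA replicate 2. Without any 1 of TSA replicates 1 and 3 and DMSO replicates 1, 2 and 3, limma called 0 probes, while 2022 to 3330 probes had an unadjusted p under 0.05 and the lowest adjusted p was 0.0586 to 0.162. Without both arrays of slide 2 it called 0 (4997 unadjusted, lowest adjusted p 0.0510). Fewer arrays are part of each such fit; other causes were not tested. Serpinb5 and Pkp1 lay near background in DMSO, so the size of their differences is limited by signal over background.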
